A study of Mus musculus
Mus spretus with 18 samples.

Results

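Gas5, Snhg1, Snhg6, Snhg12, Malat1 and Neat1 were taken by gene name from the table of TPM, the level of transcripts normalized for gene length and library size, where they were 6 of 38924 rows, and by gene symbol from the tables of skipped exon (SE) and retained intron (RI) events. All 6 have a mean TPM of at least 1, the minimum for a test, both in the tissue libraries and in the fibroblast libraries. The libraries were stranded mRNA-seq of F1 hybrids from a C57BL/6J mother, a laboratory mouse strain, and a SPRET/EiJ father, a wild-derived strain of Mus spretus, so that each gene is present as 1 C57BL/6J and 1 SPRET/EiJ copy. Cerebral cortex, heart, kidney, lung and spleen came from 2 females aged 8 weeks, with 2 libraries per organ. The 2 liver libraries had been made in an earlier study and, by the study's account, are from those 2 animals too, so the organs are not from independent animals. The 2 embryonic stem cell (ESC) libraries came from separate clones. Fibroblasts of 1 cell line from the same F1 hybrid were treated for 4 h with 0.1 µM pladienolide B (PladB), a compound that binds the SF3B complex of the U2 snRNP and inhibits splicing, or with DMSO, its solvent, with 2 libraries each. No label says that the fibroblast libraries came from separate cultures, so their p-values measure only the spread between these libraries, which may be technical. All mice and cells carry both genomes, so no library is of 1 parental strain.

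Gas5 and the Snhg genes are host genes: small nucleolar RNAs (snoRNAs), which guide the chemical modification of ribosomal RNA, lie in their introns and are released when the introns are spliced out and trimmed. The spliced host RNA itself encodes no conserved protein, and Gas5 is known as a target of nonsense-mediated decay, which couples its level to translation. Malat1 and Neat1 are long RNAs that stay in the nucleus. Malat1 is hardly spliced and gathers in nuclear speckles, the stores of splicing factors, and Neat1 is the RNA scaffold of paraspeckles.

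The positions that follow are those of RefSeq on GRCm38, the assembly also called mm10. Gas5 lies at chr1:161034601-161038539 and holds 8 annotated snoRNA genes, among them Snord47. Snhg1 lies at chr19:8723487-8726326 and also holds 8, among them Snord22. Snhg6, at chr1:9942025-9944118, holds only Snord87. Snhg12, at chr4:132308678-132311024, holds Snora16a, Snora44, Snora61 and Snord99. Malat1 lies at chr19:5795690-5802672, and its locus includes Mascrna, the small tRNA-like RNA cut from its 3' end. Neat1 lies on the same chromosome at chr19:5824708-5845480. The Gas5 locus overlaps the protein-coding gene Zbtb37, and that of Snhg6 overlaps Mcmdc2.

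Junction reads per library, summed over SE events, ranged from 46558287 to 129496306 in the tissues and from 129067054 to 151755602 in fibroblasts. The summed TPM of 3 marker genes for each organ and for ESC was highest in the libraries labelled with that tissue, and the fibroblast markers were highest in the fibroblasts. Liver markers (Alb, Apoa1, Ttr) summed to 1423 and 1223 TPM in the cortex libraries, and heart markers (Myh6, Tnnt2, Actc1) to 949 and 760 in lung. Blood markers, of which 2 of 3 are in the table, summed to 348 and 1230 TPM in the 2 spleen libraries, 765 and 561 in lung, and 465 and 662 in heart. Whether such sums reflect admixture of other cells or expression by the tissue itself was not tested, nor was any part of it in the levels of the 6 genes. The ESC clones differed from each other more than the libraries of any organ did for 5 of the 6 genes.

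Across the 7 tissues, the 4 host genes shared one pattern, with the highest levels in ESC and spleen and the lowest in heart and liver, whereas Malat1 was highest in cortex and Neat1 in lung. All 6 genes differed among tissues (limma F test), but so did 99.7% of the 19138 genes tested, so the count says nothing particular about them. The fold between the highest and lowest tissue was 9.76 for Gas5, 18.7 for Snhg1, 12.5 for Snhg6, 12.7 for Snhg12, 12.5 for Malat1 and 12.1 for Neat1, below the median of 19.2 over all genes tested in each case. In tissue as in cells, fewer expressing cells and less RNA per cell cannot be told apart.

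Gas5, first found as an RNA that accumulates in growth-arrested cells, measured 162 and 103 TPM in ESC, 133 and 128 in spleen, 49.6 and 45.4 in cortex, 36.8 and 35.9 in lung, 24.5 and 24.1 in kidney, 18.1 and 14.8 in liver, and 13.0 and 13.6 in heart. The spleen libraries fell between the ESC clones, and both stood above every other tissue. Over all 21 pairs of tissues, 76.6% of all tests of a gene passed limma, from 62.3% to 85.7% in a single pair. Neighbours in this order that did not differ were spleen and ESC (adjusted p = 0.939), cortex and lung (0.0739), and liver and heart (0.158). The F test gave an adjusted p of 6.71e-08.

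Snhg1 was lower than Gas5 in every tissue, with 92.8 and 60.8 TPM in ESC, 36.6 and 38.3 in spleen, 9.75 and 9.01 in lung, 9.51 and 8.81 in cortex, 6.61 and 6.39 in kidney, 3.84 and 4.13 in heart, and 4.31 and 3.57 in liver. ESC and spleen did not overlap with each other or with the rest. Lung and cortex (adjusted p = 0.878) and heart and liver (adjusted p = 0.932) did not differ in limma.

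Snhg6 measured 110 and 107 TPM in ESC, 48.9 and 43.5 in spleen, 21.7 and 19.6 in cortex, 16.3 and 17.7 in lung, 13.9 and 16.3 in kidney, 10.5 and 7.93 in liver, and 8.65 and 8.57 in heart. It was the one gene of the 6 whose ESC clones were alike, with a ratio of 1.028 between them. Cortex and lung (adjusted p = 0.0963), lung and kidney (0.288) and liver and heart (0.622) did not differ in limma.

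Snhg12 measured 126 and 80.2 TPM in ESC, 69.5 and 59.5 in spleen, 37.6 and 36.0 in cortex, 24.2 and 23.9 in lung, 19.1 and 18.5 in kidney, 10.6 and 10.3 in heart, and 8.48 and 7.22 in liver. Lung and kidney (adjusted p = 0.114) and heart and liver (0.0588) did not differ in limma, and all other neighbours did.

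Malat1 measured 827 and 762 TPM in cortex, 624 and 194 in ESC, 247 and 199 in kidney, 202 and 204 in spleen, 97.6 and 131 in lung, 54.9 and 80.8 in liver, and 57.8 and 69.9 in heart. The ESC clones lay 3.21-fold apart, one near cortex and the other at the level of spleen and kidney. Only the first step of the order, from cortex to ESC, differed in limma (adjusted p = 0.0286).

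Neat1 was lowest where Malat1 was highest, with 217 and 220 TPM in lung, 167 and 162 in kidney, 96.0 and 112 in heart, 78.0 and 61.0 in spleen, 72.0 and 25.5 in ESC, 41.8 and 37.4 in liver, and 19.96 and 16.3 in cortex. Cortex was below all other tissue libraries. The ESC clones lay 2.82-fold apart, and only liver and cortex, the last step, differed in limma (adjusted p = 0.0156).

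**Figure D1:**
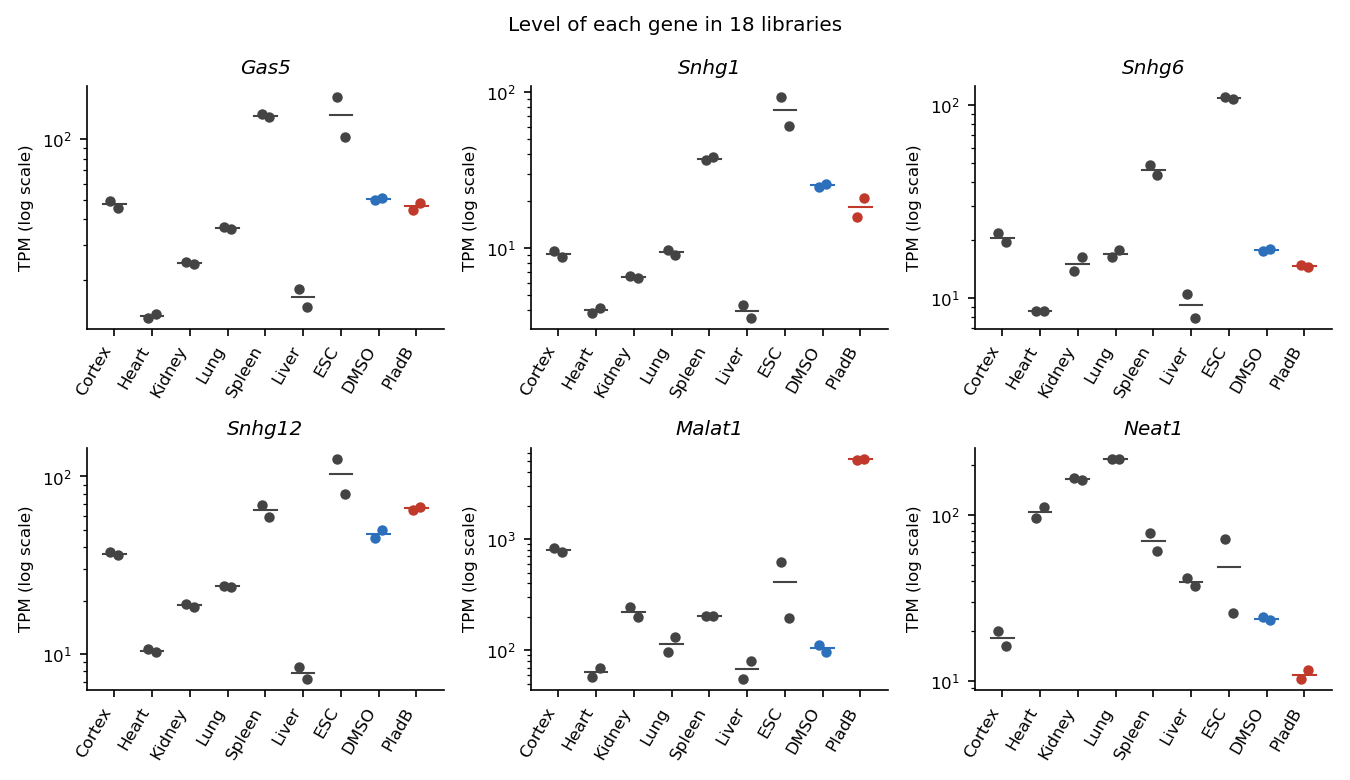
TPM on a log scale for each of the 6 genes, with 1 point per library and a line at the mean of the 2 libraries, in 7 tissues and in DMSO and PladB fibroblasts. The 4 host genes peak in ESC and spleen, Malat1 in PladB fibroblasts at 5171 and 5315 TPM, and Neat1 in lung at 217 and 220 TPM.

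Over the 14 tissue libraries, the 4 host genes rose and fell together, with Pearson's r of log2(TPM + 0.1) between 0.945 and 0.986 for their 6 pairs. Their r with Malat1 lay between 0.51 and 0.70, and that with Neat1 between -0.24 and -0.17. For Malat1 and Neat1 r was -0.43. These points share tissue and library, so they describe a likeness over 7 tissues, not 14 independent samples. By the same measure, the genes most like Snhg1 were Rbm17 (0.992), Gm11974 (0.991) and Palb2 (0.989), and those most like Snhg12 were Nipbl (0.993), Chfr (0.992) and Mthfd1l (0.990). For Snhg6 they were Rpl3-ps2 (0.990), Rqcd1 (0.989) and Heatr1 (0.989). For Gas5 they were 3 predicted genes, Gm23212 (0.992), Gm22357 (0.990) and Gm22489 (0.990). Malat1 was most like Trappc11 (0.972), a row named MALAT1 (0.970) and Gm26944 (0.968), and Neat1 was most like 3 rows named NEAT1_2, NEAT1_1 and NEAT1_3 (0.985, 0.979 and 0.974). These rows carry names given to segments of the same RNAs. The authors split reads that fall on several annotated genes evenly between them, and the table holds no positions, so shared reads cannot be told apart from likeness.

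Of the 21 snoRNA genes in the 4 host loci, 7 have a TPM row of the same symbol, at least 1 per host. Snord47, in an intron of Gas5, measured 58.7 and 51.3 TPM in cortex against 8.03 and 8.06 in kidney, whereas the kidney libraries held 24.5 and 24.1 TPM of Gas5 itself against 49.6 and 45.4 in cortex. Snord22, in Snhg1, was highest in ESC at 139 and 106 TPM, as its host was. Snora44, in Snhg12, was higher in spleen (28.9 and 27.6 TPM) than in ESC (16.3 and 15.3), the reverse of the order of its host. Libraries of mRNA capture mature snoRNAs poorly, and reads of intron or precursor RNA over such a row cannot be told apart from the mature snoRNA.

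In fibroblasts, PladB was compared with DMSO to ask how the genes respond when the spliceosome is inhibited. Malat1 rose 50.5-fold and Snhg12 rose under either scaling tried. Neat1 fell on the deposited scale by as much as the median gene, and Snhg1 and Snhg6 fell slightly on that scale but rose after median-of-ratios scaling. Gas5 did not pass the test on the deposited scale. Of the 6 genes, 5 passed limma at an adjusted p under 0.05, beside 88.9% of 13221 genes tested (15.8% higher and 73.1% lower). The median change of all genes tested was -1.13 on the log2 scale of TPM + 0.1, so the 4 host genes lay above the median gene and Neat1 lay on it. TPM values sum to a fixed total in each library, and another scaling shifted this median by 1.08.

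Malat1 measured 112 and 96.3 TPM in DMSO and 5171 and 5315 TPM in PladB. Both treated libraries stood far above both controls and above every tissue library, including the 827 TPM of cortex. The log2 change was 5.66 ± 0.0776 (SE, n = 2 per group, limma adjusted p = 3.41e-06), the 21st largest increase among 13221 genes. Relative to the median gene it was 6.79, or 111-fold, and after median-of-ratios scaling 6.75. The row named MALAT1 went from 273 and 216 TPM to 19210 and 19140 TPM, a 78.5-fold difference, and another row of that name was listed at 0 in all 18 libraries.

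Neat1 measured 24.2 and 23.2 TPM in DMSO and 10.2 and 11.5 TPM in PladB. The treated libraries lay below the controls without overlap. Neat1 fell by 1.12 ± 0.0773 on the log2 scale (SE, limma adjusted p = 8.26e-05), which is 0.011 above the median gene, and after median-of-ratios scaling its change was -0.037 and no longer passed (adjusted p = 0.647). The rows NEAT1_1, NEAT1_2 and NEAT1_3 fell by 1.48, 1.14 and 1.12.

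Snhg12 measured 45.2 and 49.7 TPM in DMSO and 65.1 and 67.0 TPM in PladB, with no overlap. It rose by 0.48 ± 0.0597 (SE, limma adjusted p = 0.000918), or 1.61 above the median gene, and it was the only host gene of the 4 that rose on the deposited scale. Gas5 measured 49.9 and 51.0 TPM in DMSO and 44.5 and 48.4 TPM in PladB. The controls were slightly higher in both cases, but the difference of -0.12 ± 0.0559 (SE) did not pass limma (adjusted p = 0.0953), except without PladB replicate 2 (0.0157).

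Snhg1 measured 24.6 and 25.8 TPM in DMSO and 15.8 and 21.1 TPM in PladB, where the 2 treated libraries lay 1.33-fold apart. It fell by 0.46 ± 0.143 (SE, limma adjusted p = 0.0289), and the call was lost without DMSO replicate 1 (0.0501), without DMSO replicate 2 (0.0793) and without the filter on low values (0.0603). Without PladB replicate 1 the change was -0.26 and without PladB replicate 2 it was -0.67. Snhg6 measured 17.5 and 17.9 TPM in DMSO and 14.9 and 14.6 TPM in PladB. It fell by 0.26 ± 0.0496 (SE, limma adjusted p = 0.00502), a call lost without DMSO replicate 2 (0.0534) and with all 18 libraries in 1 fit (0.0947). Relative to the median gene, Gas5, Snhg1 and Snhg6 lay 1.01, 0.67 and 0.87 higher, and under median-of-ratios scaling all 3 turned into increases (0.97, 0.62 and 0.83). Under that scaling 42.8% of all genes were higher and 45.6% lower.

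**Figure D2:**
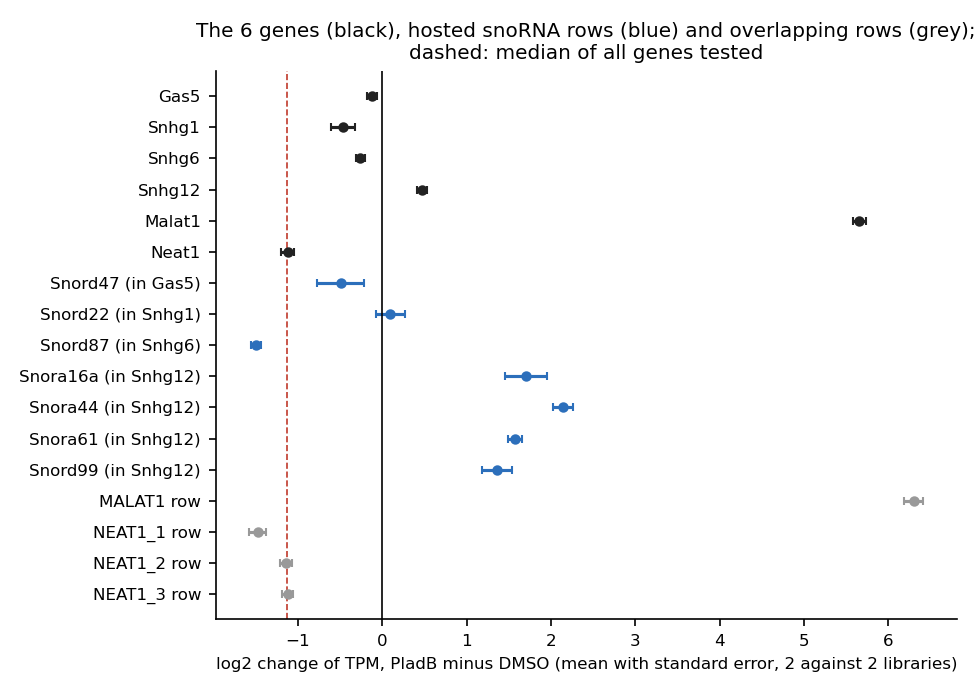
Log2 change of TPM from DMSO to PladB, with its standard error over 2 against 2 libraries, for the 6 genes (black), 7 snoRNA rows in their loci (blue) and 4 rows with names of Malat1 or Neat1 segments (grey). The dashed line is the median of all genes tested, -1.13, and Gas5, Snhg1 and Snhg6 lie between it and 0, so that their direction depends on the scaling.

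The 4 snoRNA rows of Snhg12 all rose, more than their host did. Snora44 went from 4.68 and 3.72 TPM in DMSO to 18.5 and 19.1 TPM in PladB, a 4.47-fold increase (limma adjusted p = 3.72e-05). Snora16a, Snora61 and Snord99 rose by 1.71, 1.57 and 1.36 on the log2 scale, each without overlap between the groups. Snord87, in Snhg6, went the other way, from 14.4 and 14.6 TPM to 4.91 and 5.21 TPM. This 2.86-fold decrease (adjusted p = 1.34e-05) lay 0.37 below the median gene on the log2 scale. Snord47 of Gas5 (41.4 and 28.95 against 19.4 and 31.1 TPM, adjusted p = 0.154) and Snord22 of Snhg1 (50.4 and 48.3 against 44.1 and 62.9 TPM, adjusted p = 0.627) overlapped between the groups and did not pass.

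Other hosts and partner genes give the setting. Among all genes tested, 15.8% rose and 73.1% fell as deposited, and 42.8% rose and 45.6% fell after median-of-ratios scaling. Of 23 protein-coding snoRNA hosts, mostly genes of ribosomal proteins and translation factors, 15 rose and 8 fell, with a median change of 0.61 beside -1.13 for all genes (22 higher and 1 lower after median-of-ratios scaling). Taf1d (0.96) and Rps12 (0.92) rose most, and Hspa8, which encodes a chaperone (-1.26), and Dkc1, the pseudouridine synthase of H/ACA snoRNPs (-0.83), fell most. Of 6 other noncoding hosts tested, out of 7 in the table, 2 rose and 4 fell (median -0.25), with Snhg9 (1.33) and Snhg4 (0.49) higher and Snhg3 (-1.43) and Snhg5 (-1.12) lower. After the other scaling 4 of these 6 were higher and 1 lower.

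Of 14 genes for snoRNP proteins and their assembly factors, 2 rose and 11 fell (median -0.98), or 6 and 5 after the other scaling. The split of this list was near that of all genes tested, of which 73.1% fell as deposited and 45.6% after scaling. The largest decreases were those of the assembly factors Znhit3 (-3.07), Znhit6 (-2.45), Nufip1 (-1.69) and Naf1 (-1.58). Nop10, a core H/ACA protein, rose (0.61).

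For comparison, 15.8% of all genes tested rose and 73.1% fell as deposited, and 42.8% rose and 45.6% fell after median-of-ratios scaling. Of 15 genes for paraspeckle proteins, 0 rose and 13 fell, or 10 rose and 3 fell after the other scaling. Their median of -0.66 lay above the -1.13 of all genes. Cpsf7 (-2.32), Rbm14 (-2.02) and Smarca4 (-1.82) fell most, and Sfpq and Nono, which bind Neat1, fell by 1.07 and by 0.37. Of 10 factors of nonsense-mediated decay, 9 fell and 1 rose (median -1.85), with Smg9 (-3.44), Smg5 (-2.66), Upf2 (-2.31) and Smg6 (-2.10) the most decreased, and 8 fell after scaling. Of 3 other nuclear long noncoding RNAs tested, Airn fell by 0.53, whereas Xist (-0.08, limma adjusted p = 0.517) and Meg3 (-0.46, adjusted p = 0.107) did not pass, and all 3 were higher after scaling.

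Intron retention was measured as PSI, the length-corrected share of junction reads that support the retained form, for events with 20 or more reads in each of the 4 fibroblast libraries. In all, 12 introns met this, 11 in Gas5 and 1 in Snhg6, and none was listed for the other genes. All 12 had a lower mean PSI after PladB, that is, relatively more spliced reads. Of these, 5 passed the quasi-binomial test with a PSI difference of at least 0.1, all lower, beside 38.0% of 1802 introns tested (2.89% lower and 35.1% higher). The median difference was -0.0842 for the 12 introns and 0.0371 for all introns. The Gas5 introns overlap and share reads, so they are not separate observations.

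The Gas5 intron at chr1:161036853-161037123, 271 bp long and holding 1 annotated snoRNA gene, had a PSI of 0.344 and 0.334 in DMSO and of 0.0645 and 0.0886 in PladB. The groups lay far apart, with a difference of -0.262 (adjusted p = 1.86e-08). The longer intron from the same donor, chr1:161036853-161037287, went from 0.217 and 0.213 to 0.0437 and 0.0518 (adjusted p = 1.69e-08). The 123-bp intron chr1:161037165-161037287, which holds no annotated snoRNA, went from 0.252 and 0.244 to 0.0698 and 0.0867 (adjusted p = 2.15e-07).

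These 3 introns adjoin or span a 41-bp cassette exon of Gas5. The intron chr1:161036245-161036819 was almost always read as retained, with a PSI of 0.988 and 0.992 in DMSO and of 0.829 and 0.822 in PladB (adjusted p = 8.98e-06). It contains a shorter annotated exon, so that reads of that exon may count as retention. Among the 7 Gas5 introns without a call, 5 had adjusted p-values from 7.60e-07 to 0.0268 but differences under 0.1, and the smallest difference was -0.00673 (adjusted p = 0.537).

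The Snhg6 intron at chr1:9942150-9942322, which holds no annotated snoRNA, went from 0.527 and 0.408 in DMSO to 0.2 and 0.263 in PladB. The groups did not overlap, although the spread within each was wider than in Gas5. The difference was -0.236 (adjusted p = 0.00691), and the call was lost without PladB replicate 1 (0.0930) and without DMSO replicate 1 (0.0921).

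**Figure D3:**
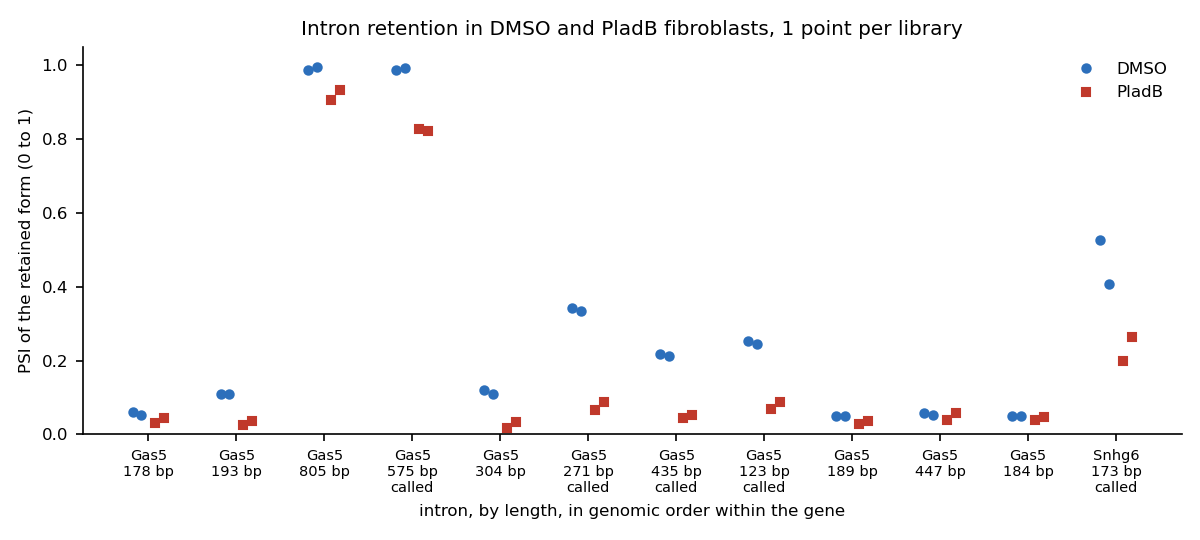
PSI of the retained form, from 0 to 1, for 11 Gas5 introns and 1 Snhg6 intron, named by length, in 2 DMSO libraries (blue circles) and 2 PladB libraries (red squares). PladB lies lower on average for each intron, most of all for the 271-bp Gas5 intron, from 0.344 and 0.334 to 0.0645 and 0.0886.

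Of the listed SE events, 53 had 20 or more reads in each fibroblast library: 41 in Gas5, 9 in Snhg12, 2 in Snhg6 and 1 in Snhg1, with none listed for Malat1 or Neat1. In 45 of the 53 the mean PSI was above 0.9 in both groups. PSI was lower in PladB in 46 (86.8%, beside 74.3% of all events) and higher in 7. In 24 of the 53 (45.3%, beside 16.1% of all events), skipping reads were present in both PladB libraries and in neither DMSO library. These 24 events share 11 skipping junctions, so they are not separate observations. Only 3 events were called, all lower, beside 7.24% of 54535 events (7.13% lower and 0.106% higher). The median difference was -0.0113 for these events and -0.00524 for all.

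In Snhg12, exon chr4:132310451-132310504 had no skipping read among 166 and 195 reads in DMSO, which allows a share of up to 1.81% and 1.54%. In PladB, 41 of 331 and 73 of 445 reads skipped it. Skipping reads were in the treated libraries only, and these limits cover counting error only. PSI went from 1 in both controls to 0.839 and 0.790, a difference of -0.185 (quasi-binomial model, adjusted p = 0.00852). With the spread taken from the fit of all libraries, the adjusted p was 0.0690 without DMSO replicate 1 and 0.0790 without DMSO replicate 2. The skipping junction, from 132308907 to 132310834, leaves out the exons between as well. With the upstream partner ending at 132309903 the same exon differed by -0.0586, and with that ending at 132310215 by -0.0113. Neither was called. Set against the 66-bp exon chr4:132309838-132309903, the same skipping reads gave a PSI of 0.967 and 0.954 in PladB. The size of the difference therefore depends on the exons it is measured against.

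The other calls were for 1 Gas5 exon, chr1:161035983-161036244, with separate downstream partners. Toward 161036820, skipping reads were 0 of 417 and 0 of 419 in DMSO, which allows up to 0.719% and 0.716%, and 2 of 38 and 9 of 69 in PladB, with a PSI of 0.9 and 0.769 after treatment (adjusted p = 0.0170). Inclusion reads fell from 417 and 419 to 36 and 60. Toward 161037505, they were 0 of 415 and 0 of 419 in DMSO and 3 of 35 and 4 of 53 in PladB (adjusted p = 0.0236). This 262-bp form of the exon contains the intron chr1:161036015-161036207, whose retention PSI was 0.109 and 0.109 in DMSO and 0.0239 and 0.0360 in PladB. The spliced 32-bp form, chr1:161035983-161036014, with the same skipping reads toward 161036820, was not called (adjusted p = 0.110). The calls on the longer form rest on 2 to 9 skipping reads per library. Both were lost with any of the 4 libraries left out, in fits that have only 1 residual degree of freedom.

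The Gas5 exon with the most balanced use showed no detectable change. This 41-bp cassette exon at chr1:161037124-161037164 had a PSI of 0.367 and 0.366 in DMSO and of 0.366 and 0.368 in PladB, over 19585 reads. The libraries of the 2 groups overlapped, and the difference of 0.0006 did not pass (adjusted p = 0.934). The Snhg6 exon chr1:9942610-9942717 went from 0.936 and 0.951 to 0.910 and 0.878 (difference -0.0502, adjusted p = 0.0917). The only Snhg1 event differed by -0.0279 (adjusted p = 0.0788).

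Among the 7 tissues, the Gas5 cassette exon was the single event of 43 tested in these genes that was called, beside 9.0% of 47963 events. Its PSI was 0.192 and 0.193 in cortex, 0.251 and 0.218 in heart, 0.271 and 0.343 in liver, 0.402 and 0.372 in ESC, 0.423 and 0.394 in spleen, 0.428 and 0.470 in kidney, and 0.442 and 0.441 in lung. Cortex was below every other library, and kidney, lung, spleen and ESC lay close together. The range of means was 0.256 (quasi-binomial F test, adjusted p = 2.34e-08).

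Of the 43 events, 40 were in Gas5 and 1 each in Snhg6, Snhg12 and Neat1, and 40 had a PSI above 0.9 in every tissue measured. The Snhg6 exon ranged over 0.0581 (adjusted p = 0.0931). The Neat1 event, measured in kidney, lung and ESC, ranged over 0.0117 (adjusted p = 0.954).

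Both alleles of a hybrid are exposed to the same trans-acting factors, and comparing them addresses the cis-regulatory part of splicing divergence. The Snhg6 exon chr1:9942610-9942717 was included more on the C57BL/6J allele in 18 of 18 libraries, by 0.0104 to 0.636 (median 0.170). The C57BL/6J allele kept the exon almost fully everywhere, at 0.971 to 1, and outside liver most skipping reads came from the SPRET/EiJ allele. In PladB, 9 and 17 skipping reads were on C57BL/6J beside 46 and 67 on SPRET/EiJ. In liver they were 0 and 1 on C57BL/6J against 2 and 1 on SPRET/EiJ, so the direction there rests on few reads. In DMSO fibroblasts its PSI was 1 and 1 on C57BL/6J against 0.603 and 0.702 on SPRET/EiJ, and in PladB fibroblasts 0.983 and 0.971 against 0.509 and 0.335. In both conditions the alleles lay apart without overlap.

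This allelic difference passed the quasi-binomial test in DMSO (0.348, adjusted p = 0.00284) and in PladB (0.555, adjusted p = 0.000106). The background of events called in these groups was 1.76% and 1.7%. In the tissues it passed in heart (0.238, adjusted p = 0.0214; background 1.67%), kidney (0.185, 0.00885; 1.71%), spleen (0.170, 0.00446; 1.31%), cortex (0.114, 0.0380; 1.55%) and lung (0.107, 0.0445; 1.68%). It did not pass in ESC (0.0949, 0.0784; 0.229%) or in liver (0.0144, 0.565; 1.16%). Heart had 0.783 and 0.736 on SPRET/EiJ, and liver 0.982 and 0.984.

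The 2 alleles of a library are paired. With the library as a block only 1 residual degree of freedom is left per group, and no event of any gene was called. With the block and the spread of the fit without it, the Snhg6 exon was lost in cortex (adjusted p = 0.0527), heart (0.0612) and lung (0.0727) and passed in the other 4 groups. The allelic difference of the exon was 0.207 larger in PladB than in DMSO, with an unadjusted p of 0.0228 and an adjusted p of 0.789 for the interaction. Of 10 events of these genes tested for an interaction, 0 were called by the quasi-binomial model and 2 had an unadjusted p under 0.05, beside 0.0374% of 13352 events called.

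The Gas5 cassette exon was also used more on the C57BL/6J allele, in 15 of 18 libraries (-0.0891 to 0.215). In spleen its PSI was 0.460 and 0.420 on C57BL/6J against 0.245 and 0.264 on SPRET/EiJ, a difference of 0.185 that was called (adjusted p = 0.0194). Kidney had 0.443 and 0.498 against 0.239 and 0.299, heart 0.280 and 0.260 against 0.144 and 0.0939, and lung 0.459 and 0.461 against 0.332 and 0.298. In these 3 organs the alleles did not overlap either, but the differences of 0.202, 0.151 and 0.145 did not pass (adjusted p = 0.0755, 0.0979 and 0.0529). Cortex and liver were also higher on C57BL/6J without overlap, by 0.0483 and 0.12. These differences did not pass the quasi-binomial test (adjusted p = 0.311 and 0.521). The share of all events whose alleles separate in this way was not computed.

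In ESC the C57BL/6J allele was lower in 1 clone and higher in the other, with a difference of -0.0351 (adjusted p = 0.798). In fibroblasts, the exon had 0.367 and 0.365 on C57BL/6J against 0.371 and 0.380 on SPRET/EiJ in DMSO, and 0.367 and 0.371 against 0.333 and 0.270 in PladB. In DMSO the C57BL/6J allele was slightly lower in both libraries (-0.00932, adjusted p = 0.839), and the difference in PladB was 0.0677 (adjusted p = 0.506). The tissues with a higher C57BL/6J allele were not tested against ESC or DMSO.

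**Figure D4:**
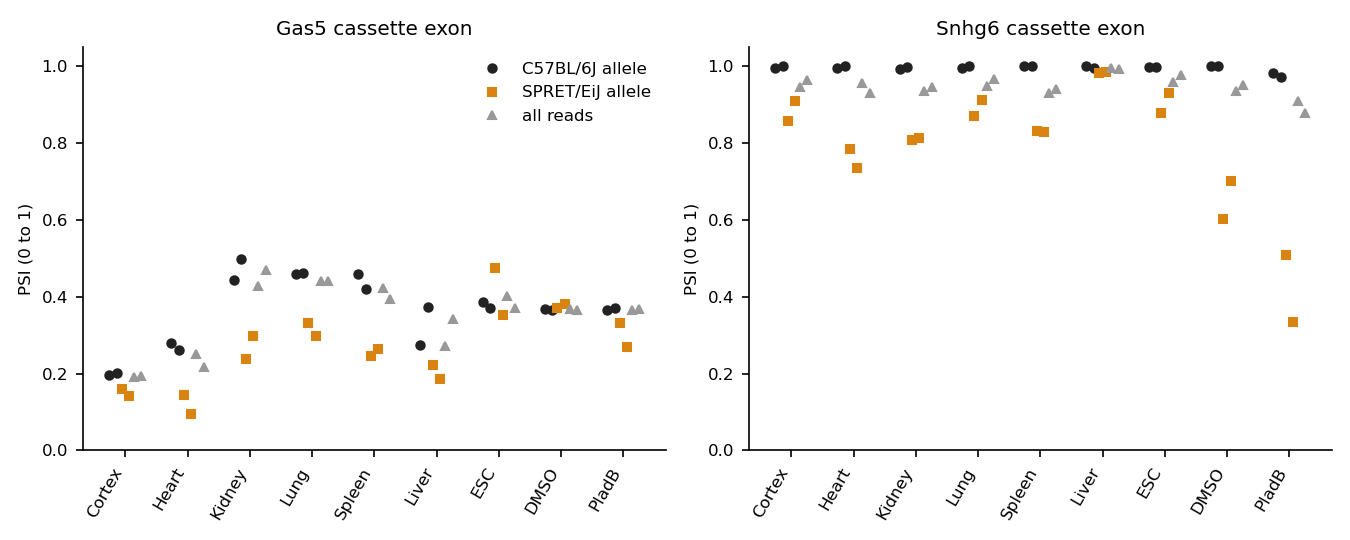
PSI, from 0 to 1, of the Gas5 cassette exon (left) and the Snhg6 exon (right) on the C57BL/6J allele (black circles), on the SPRET/EiJ allele (orange squares) and over all reads (grey triangles), with 1 point per library. The SPRET/EiJ allele of Snhg6 is lower in all 18 libraries, down to 0.509 and 0.335 in PladB. The Gas5 alleles do not overlap in any organ, and only spleen was called, with 0.460 and 0.420 against 0.245 and 0.264.

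The Snhg12 exon that was skipped after PladB was skipped mainly from the C57BL/6J allele. In PladB, 40 of 137 and 60 of 187 C57BL/6J reads skipped it, against 1 of 194 and 13 of 258 SPRET/EiJ reads. The PSI was 0.641 and 0.610 on C57BL/6J and 0.993 and 0.933 on SPRET/EiJ. The difference of -0.337 was called (quasi-binomial model, adjusted p = 0.00442). It uses the skipping junction described above, so its size also depends on the exons it is measured against. The DMSO table of alleles does not list this event, so its interaction with treatment was not tested. Of the 20 events of these genes tested between alleles in PladB, the Snhg6 and Snhg12 exons were the 2 called, and 17 differed by less than 0.1. Among all 29381 events tested there, 1.7% were called. Events of 1 gene overlap and share reads, so the 20 are not separate observations.

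Among the other tissue events, 0 of 16 were called in liver and 0 of 50 in ESC by the quasi-binomial model, where 1 and 5 had an unadjusted p under 0.05. The shares of all events called were 1.16% in liver and 0.229% in ESC, so these counts say nothing particular about the genes. Spleen, with 31 events tested, had 2 calls, the exons of Snhg6 and Gas5, beside 1.31% of all events. For the Gas5 exon between 96.2% and 100% of the reads per library were assigned to an allele, and for the Snhg6 exon between 96.0% and 100%.

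The alleles also contributed unequal numbers of junction reads, counted for the event with most reads per gene and given as a description. Gas5 had 66.8% to 75.4% of its reads on C57BL/6J in the tissues, against medians of 49.95% to 50.7% over all genes. Its mean share lay above the 95th percentile of all genes in cortex (70.9% against 66.5%) and kidney (74.3% against 72.3%). In heart, lung, spleen, liver and ESC it lay below that percentile, which was 70.6% to 75.5% there. In fibroblasts the share was higher, at 89.9% and 88.9% in DMSO and 90.9% and 91.5% in PladB. The share depended on the event. Over all tested Gas5 events, with both libraries summed, it ranged from 31.9% to 97.5% in spleen (29 events, median 70.5%), from 60.5% to 97.7% in ESC (44 events, median 74.5%), from 83.4% to 96.8% in DMSO (10 events, median 87.5%) and from 84.7% to 96.9% in PladB (9 events, median 90.3%). Snhg6 had 83.3% and 79.1% in heart, 62.3% and 62.9% in ESC, 86.2% and 85.4% in DMSO, and 87.3% and 88.8% in PladB.

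Neat1 was on the C57BL/6J side in the 3 tissues whose tables list its event, with 81.0% and 83.1% in kidney, 76.7% and 82.3% in lung, and 71.8% and 77.3% in ESC. Snhg12 was on the SPRET/EiJ side in ESC (28.9% and 23.6% on C57BL/6J) and in spleen (38.0% and 38.2%), even in DMSO (50.5% and 49.2%) and between these in PladB (43.9% and 43.4%, or 36.8% to 53.7% over 9 events). Its mean share in ESC, 26.3%, lay near the 5th percentile of all genes (26.5%). In spleen and PladB it lay inside the 5th to 95th percentiles (32.3% to 70.6% and 24.0% to 79.1%). The Snhg1 event is listed in the allelic table of PladB only, with 98.6% of 145 and 98.2% of 279 reads on C57BL/6J, and it did not reach 20 reads on each allele. The fibroblast Gas5 shares lay above 98.3% of all genes in DMSO and 98.5% in PladB. Fibroblasts are 1 cell line, so a share particular to that line and one of the cell type cannot be told apart.

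**Figure D5:**
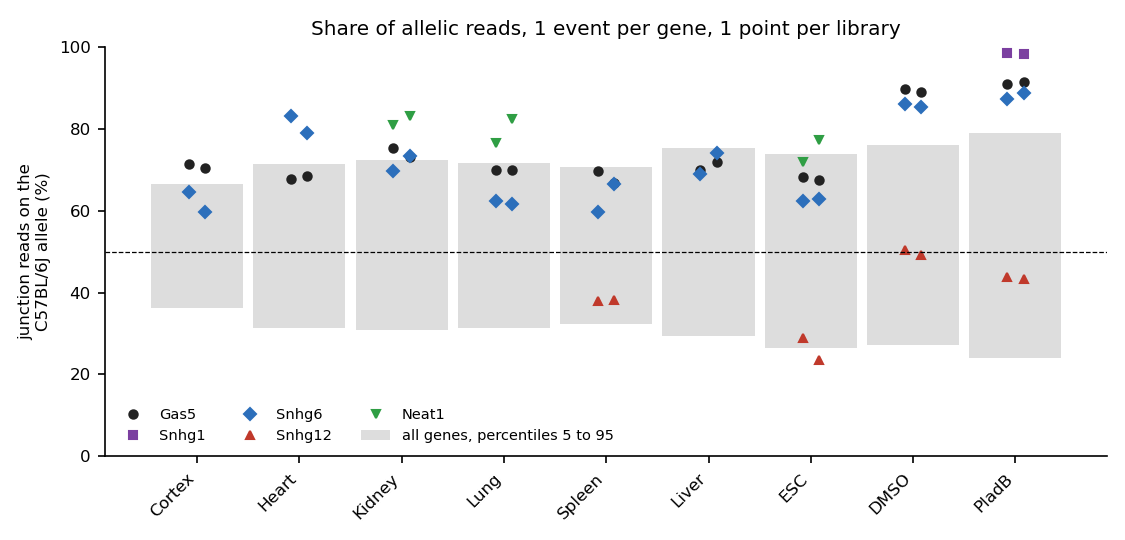
Percentage of allele-assigned junction reads on the C57BL/6J allele, for the event with most reads of each gene, with 1 point per library, and grey bars from the 5th to the 95th percentile of all genes. Gas5 and Snhg6 lie above the bars in both fibroblast groups, at 85.4% to 91.5%. Snhg12 lies below 50% in spleen, ESC and PladB, but inside the bars in spleen and PladB.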

How the data were processed

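The authors trimmed the longer reads to one length and aligned them, with soft clipping off, by HISAT2 2.0.1 to mm10 (GRCm38, Ensembl 74) and to a SPRET/EiJ genome made from it. A read went to the allele whose genome it matched with fewer edits. The deposited TPM values were made by the authors with featureCounts from strand-specific exon counts, in which a read on several genes is divided among them. The deposited junction read counts, with both replicates in 1 list, come from rMATS at default parameters, and other columns of those tables, which hold the authors' p-values, FDR and inclusion differences, were not used. Effective lengths of both forms were used as deposited.

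TPM was tested with limma 3.58.1 (R 4.3.3) on log2(TPM + 0.1) for genes with a mean of at least 1, with the 4 fibroblast libraries in 1 fit and the 14 tissue libraries in another. PSI was computed from junction counts and effective lengths for events with at least 20 reads in each library, and in each allele for allelic tests. Inclusion and skipping counts were tested in a quasi-binomial model whose dispersions, never below 1, were shrunk toward a trend with depth. That trend was fitted by fitFDist of limma on events with 10 or more reads of each form, summed over the libraries of the fit. Allelic events whose PSI differed from that of all reads by over 0.1 were left out, as were events on the sex chromosomes. Benjamini-Hochberg adjusted p-values cover all features of a fit. A call needs an adjusted p under 0.05, for PSI also a difference of at least 0.1. The PSI code ran in Python 3.11.15 with numpy 2.4.6, pandas 2.3.3 and scipy 1.17.1.

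On simulated data made from these libraries, with 200 changed features, limma recovered 72% of genes changed by 1 on the log2 scale among 13221 for the treatment. For tissues, with the change in only 1 tissue, it recovered 36% among 19138. Of its calls, 2.7% and 7.69% were false. Far more genes were called in the data (88.9% and 99.7%), so these shares do not give the power of the fits reported here. The quasi-binomial model recovered 44.0% of SE events changed by 0.2 in PSI among 54535, and 81.5% of RI events among 1802. Precision is limited by 2 libraries per group. Shares and limits of a count of 0 (3 reads of the total) cover counting error only, since reads are not independent molecules.

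The files do not state that the position in a list is the replicate number. The order of alleles follows the study's methods and was checked on imprinted genes: Meg3 and Rian, expressed from the maternal copy, had 99.0% and 99.7% of reads on C57BL/6J, and Snrpn and Peg3, expressed from the paternal copy, 0.0604% and 0.365%. Deviations of the 2 alleles of a library from their group means correlated with r from 0.0164 to 0.532 over 9 groups, and these are paired by being from 1 library. The liver labels give the strains under other names.

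All 6 genes are described. Of their events, the called ones are named, up to 3 per gene by size, and otherwise the one with most reads. The introns in Gas5 next to its cassette exon and the Snhg1 and Neat1 events follow this rule, and further values were chosen after they were seen. From each gene list up to 4 called genes with the largest change are named. The genes and lists were chosen with earlier results of these data known.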

Additional observations from a re-analysis of the deposited data

Results flagged for a closer look

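The sign of the allelic difference in the Gas5 cassette exon varied between groups. In DMSO fibroblasts the exon was lower on C57BL/6J in both libraries, by a mean difference of -0.0093 that did not pass the quasi-binomial test. In 7 other groups it was higher on C57BL/6J in each library, with mean differences from 0.0483 to 0.202, and only spleen was called. The difference between DMSO and the tissues was not tested. That between DMSO and PladB was tested as an interaction in the quasi-binomial model and did not pass (0.0771, adjusted p = 0.807). In DMSO the SPRET/EiJ allele had 124 and 160 reads for this exon, against 3551 and 3940 on C57BL/6J.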

How the results depend on the processing

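Of 100 counts of called genes or events recomputed under other settings, 88 stayed within 1.5 times the reported count in the same direction and 12 fell below it. Of 553 recomputed values of single genes and events, 501 kept their direction and their side of the threshold, 47 lost the call, 1 gained it and 4 reversed. Median-of-ratios scaling reversed the log2 changes of Gas5 (0.97), Snhg1 (0.62) and Snhg6 (0.83), and the Snhg12 interaction at exon 132309838, never called, ranged from -0.00958 to 0.000522 with 1 library left out. The count of genes called for PladB ranged from 3 to 6 with 1 library left out, lowest without DMSO replicate 2, and the cause was not tested. The 3 skipped exon calls for PladB became 1 at a minimum of 50 reads and 0 with any of the 4 libraries left out. With the replicate number as a block they also became 0, and allelic calls went from 2 events to 0 in tissues and from 2 to 0 in fibroblasts. In each of these splicing fits with a library left out or a block, 1 residual degree of freedom is left and no event of any gene passed. Refits that keep the spread of the full fit, chosen after seeing the data, gave 0 to 3 skipped exon calls with 1 library left out, 3 with the block, and 2 and 2 for the allelic events with the block. Retained intron calls ranged from 4 to 5 with 1 library left out, and were 4 with the block. For TPM the block left 5 genes called after PladB and 6 among tissues. Same-numbered libraries of the 6 organs correlated in their deviations with r from 0.0336 to 0.211, positive in all 15 pairs, against a lowest r of -0.0392 with ESC included and -0.0159 in fibroblasts. The organs share 2 animals, but no label says that the replicate number is the animal. Leaving out 1 library of an allelic comparison in a single group leaves no residual degrees of freedom and was not run.

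With 2 libraries per group, changes in PSI of under 0.1 were tested but not counted as calls, and events with under 20 reads were not tested. Malat1 and Neat1 have few or no events in these tables, and a retained form counted in one overlapping Gas5 intron is counted in others.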
